A study of Mus musculus with 2 samples.

Results

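Hif1a (ENSMUSG00000021109) and Ndrg1 (ENSMUSG00000005125) are 2 of the 479 genes of the panel, and both were read in each tumour section by their own rows of the count matrices. Hif1a encodes the alpha subunit of hypoxia-inducible factor, a transcription factor whose protein is hydroxylated and degraded while oxygen is plentiful and is stabilised when oxygen falls. Ndrg1 encodes a cytoplasmic protein of the NDRG family whose transcript rises in many cell types under low oxygen, iron depletion and cellular stress, and it serves as a transcriptional marker of hypoxia. Regulation of the HIF-1 alpha protein is largely after transcription, so the Hif1a transcript is not itself a readout of the activity of the factor.

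The series measured single RNA molecules in place, with Xenium In Situ, in 1 section labelled EKP and 1 labelled RKP, from mouse tumours grown under the skin and described as diffuse gastric cancer. Cultured EKP or RKP cells, 3000000 with Matrigel, a basement membrane gel, were injected into both flanks of C57BL/6 mice 5 weeks old. Tumours were taken at similar final volumes and placed in 1 paraffin block on 1 slide. The labels neither spell out EKP and RKP nor say which line carries the mutant RHOA of the series title, and each group is 1 section with no replicate. Every difference given here is therefore a difference between those sections or within one, with no p-value, and intervals are exact 95% intervals for counting error only.

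The files held 261111 barcodes (segmented cells) with 31597828 gene counts for EKP and 255744 with 44294494 for RKP. Barcodes with 80 or more gene counts were used, 133173 (51.0%) in EKP and 201447 (78.8%) in RKP, with medians of 191 and 185 counts. The sections share 19 barcode names, none with identical counts. Hif1a had 361607 counts in EKP and 552240 in RKP, and Ndrg1 had 298211 and 192557. The highest negative control probe, which matches no mouse transcript, had 311 and 162 counts, so both genes lay far above it.

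Barcodes were classed by marker counts. Those with 3 or more counts of Krt8, a keratin of simple epithelia, were divided by counts of Epcam, an epithelial adhesion molecule, into 0 to 1, 2 to 4, and 5 or more. All 6 epithelial markers on the panel lay above the level of all barcodes in the class with Epcam 5 or more. Of these, Krt8 and Epcam did so by construction. Only 1 of 6, Krt8 itself by construction, did so with Epcam 0 to 1 in each section, and only 2 of 6 with Epcam 2 to 4. Both classes are thus named here by their rule and not as epithelium. With Epcam 2 to 4, 3 of 4 macrophage markers lay above all barcodes in each section. Of 5 neutrophil markers, 2 did so there in EKP and 5 in RKP. Barcodes with 1 or more counts of Cd68 (a macrophage marker), Csf3r (the granulocyte colony-stimulating factor receptor of neutrophils), Lum (lumican, of fibroblasts), Pecam1 (endothelium) or Cd3e (T cells) formed further, overlapping classes. Each held all of its own listed markers above the level of all barcodes, the marker that defines the class by construction. Because segmentation can give a barcode the transcripts of a neighbour, each of these marker classes was also read in a strict form, with 3 or more marker counts and at most 2 of Krt8. The Csf3r class was mixed: all 4 macrophage markers also lay above all barcodes in it, summing to 38770.4 CPM in EKP and 35368 in RKP beside 30940.4 and 35517 for its own 5 neutrophil markers. In its strict form the macrophage markers summed to 34773 and 31534 CPM and the neutrophil ones to 74949 and 95377. All 3 fibroblast markers also lay above all barcodes in both forms. In the strict form they summed to 82188 CPM in EKP, more than its own markers, and to 58201 in RKP. Other classes were mixed as well. In both forms of the EKP Lum class, all 4 macrophage and all 5 neutrophil markers lay above all barcodes. In RKP 3 and 4 did. All 3 fibroblast markers did so in the strict Cd3e class, at 80539 CPM in EKP and 56620 in RKP. Its own T cell markers summed to 66066 and 70471. In the looser Cd68 class all 3 fibroblast markers did so in EKP, at 55622 CPM beside 37228 for its own markers, and 0 in RKP. In the strict Cd68 class all 3 did so in EKP, at 57665 CPM beside 75267 for its own markers. In RKP 2 did, the 3 summing to 33768 CPM beside 75070.5. Of the 5 neutrophil markers, 3 lay above all barcodes in the strict Cd68 class of each section.

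HIF-1 binds the core letters ACGTG or GCGTG in DNA. The Hif1a promoter is shown because it is the member whose upstream sequence was at hand, and both Vegfa starts because Vegfa, the main angiogenic growth factor and a HIF-1 target, is the hypoxia list gene that followed Ndrg1 most closely over the sections. Each sequence is the 250 bases before a RefSeq transcript start in GRCm38.p6, read along the gene, with matches to ACGTG or GCGTG on either strand in capitals.
Hif1a, chr12:73907617-73907866, + strand: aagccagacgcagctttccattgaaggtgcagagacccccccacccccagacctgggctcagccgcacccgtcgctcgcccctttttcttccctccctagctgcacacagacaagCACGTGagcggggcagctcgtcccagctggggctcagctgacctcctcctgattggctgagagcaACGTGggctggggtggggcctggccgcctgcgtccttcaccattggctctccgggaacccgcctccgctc
Vegfa, chr17:46032378-46032627, - strand: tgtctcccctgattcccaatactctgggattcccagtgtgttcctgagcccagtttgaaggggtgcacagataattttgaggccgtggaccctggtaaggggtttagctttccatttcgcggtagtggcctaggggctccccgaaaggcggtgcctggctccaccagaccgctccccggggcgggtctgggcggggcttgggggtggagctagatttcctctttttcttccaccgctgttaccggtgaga
Vegfa, chr17:46025164-46025413, - strand: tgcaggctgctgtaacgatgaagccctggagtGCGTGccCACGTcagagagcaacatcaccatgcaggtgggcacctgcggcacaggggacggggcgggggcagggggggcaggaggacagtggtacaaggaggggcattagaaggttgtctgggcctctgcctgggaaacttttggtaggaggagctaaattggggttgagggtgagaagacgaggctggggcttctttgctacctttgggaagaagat
The Hif1a window held 3 matches, of which 2 are the overlapping strands of the palindrome CACGTG and the other lies 70 bases before the start. The Vegfa windows held 0 and 2 matches, and the latter lies downstream of the former. The window before the first Vegfa start thus held 0. Both matches of the other window lie past that start, inside the gene, and not upstream of the gene as a whole. Whether that stretch is coding sequence was not tested. Of 32851 promoters of the same length in the table, 38.6% held at least 1 match and 6.58% held 3 or more. A match is a string of letters and not a measured binding site.

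Hif1a was close between the sections as a whole, while Ndrg1 was higher in EKP. Over all barcodes with 80 or more counts, the EKP level of Hif1a was 11584 counts per 1000000 gene counts (CPM; interval 11545 to 11624) and the RKP level 12305 (12271 to 12338), which is 1.06 times the former. Ndrg1 was at 9020.2 CPM (8985 to 9055) in EKP and at 4325 (4305 to 4345) in RKP, thus 2.09-fold higher in EKP (2.07 to 2.10). A change of 2-fold was the rule of size used for a call, and 19.4% of the 474 genes kept were that much higher in EKP. Of those 474 genes, 88 lay at least as far towards EKP as Ndrg1, and the median gene had a log2 ratio of RKP over EKP of -0.15.

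In the Krt8-positive barcodes (64022 in EKP, 109186 in RKP) the Ndrg1 difference was 2.32-fold (2.31 to 2.34), from 11028 CPM in EKP and 4749 in RKP, where 24.8% of genes were 2-fold or more higher in EKP. Hif1a there stood at 11454 and 10902 CPM. After each barcode was thinned at random to 80 counts, which puts all barcodes at 1 depth, Ndrg1 was found in 43.3% of Krt8-positive barcodes in EKP and 26.3% in RKP (Clopper-Pearson intervals 42.9 to 43.6 and 26.0 to 26.5). Before thinning the shares were 64.4% and 48.0%, at median depths of 241 and 222 counts. Hif1a was found in 58.1% and 54.9% of the thinned barcodes. No class is known to lack either transcript, and the lowest thinned share of Ndrg1 was in strict Cd3e barcodes, at 14.2% in EKP and 11.2% in RKP.

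The Ndrg1 difference was present at every Epcam level of the Krt8-positive barcodes. With Epcam 0 to 1, its EKP level was 9877 CPM and its RKP level 3467, 2.85-fold apart (background, the share of genes 2-fold or more higher in EKP in the same class, 26.7%). With Epcam 2 to 4 it stood at 11682 and 4396 CPM, 2.66-fold (background 25.3%). With Epcam 5 or more it stood at 11296 and 5198 CPM, 2.17-fold (background 24.7%). All 3 classes passed 2-fold in the same direction, and the EKP level of each lay above every RKP class.

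Hif1a behaved differently over Epcam: it was highest where Epcam was lowest, in both sections. In EKP it stood at 14114 CPM with Epcam 0 to 1, 11833 with Epcam 2 to 4 and 10562 with Epcam 5 or more. In RKP the same classes stood at 17483, 13257 and 8517 CPM. The RKP section had the higher level at low Epcam and the lower level at high Epcam, so the log2 ratio of RKP over EKP went from 0.31 to -0.31 and the orders of the sections crossed. The median gene stood at -0.32 in both classes. Hif1a was thus near the median gene at high Epcam, where 237 of 465 genes lay at least as low, and above it at low Epcam. The nearly equal levels over all Krt8-positive barcodes combine these opposed differences.

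Within a section, Hif1a was 1.34-fold higher (1.32 to 1.35) at low than at high Epcam in EKP and 2.05-fold higher (2.04 to 2.07) in RKP. The latter passed the 2-fold rule, as did 37.5% of the genes in that comparison (37.9% in EKP), and the median gene was lower at high Epcam too, with a log2 ratio of high over low Epcam of -0.76 in EKP and -0.69 in RKP. The Hif1a difference in EKP (log2 -0.42) was thus smaller than that of the median gene, and the one in RKP (log2 -1.04) was larger. Hif1a was higher at low Epcam in 10 of 10 deciles (equal stretches) of the barcode order in each section, with log2 ratios of high over low Epcam between -0.61 and -0.26 in EKP and between -1.19 and -0.65 in RKP. Scaled per barcode, with no division by gene totals, the log2 ratio was -0.10 in EKP and -0.68 in RKP.

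Ndrg1 went the other way over Epcam, by less than 2-fold in the sums of each class. It was 1.14-fold higher (1.13 to 1.16) at high Epcam in EKP and 1.499-fold higher (1.48 to 1.52) in RKP, where 12.1% and 17.8% of genes were 2-fold or more higher at high Epcam. The direction held in 9 of 10 deciles of barcode order in each section and failed in the last decile of both, at a log2 ratio of -0.33. The highest decile stood at 0.81 in EKP and at 1.78 in RKP, the latter past 2-fold. The median decile stood at 0.58 in EKP and 0.50 in RKP. In Krt8-positive barcodes without a count of Cd68, Csf3r, Lum, Pecam1 or Cd3e, the EKP direction turned (log2 -0.24) and the RKP direction did not (0.51), so no Epcam dependence of Ndrg1 is claimed for EKP. The Hif1a difference was as large in those barcodes, at a log2 ratio of -0.49 in EKP and -1.20 in RKP.

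Other markers moved with Epcam in the same barcodes. Macrophage markers (4 on the panel) summed to 11144 CPM at low and 4556 at high Epcam in EKP, and to 17861 and 6271 in RKP. Fibroblast markers (3 on the panel) summed to 49644 and 22044 CPM in EKP and to 23969.6 and 16110.4 in RKP. Of the cell-cycle genes, Mki67 was 1.87-fold higher at low Epcam in EKP and 1.98-fold in RKP, and Top2a was 2.25-fold and 1.88-fold higher. Top2a thus passed 2-fold in EKP, as did 37.9% of genes. Apart from the reading without stromal and immune markers, the part of these genes in the Hif1a result was not tested.

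**Figure D1:**
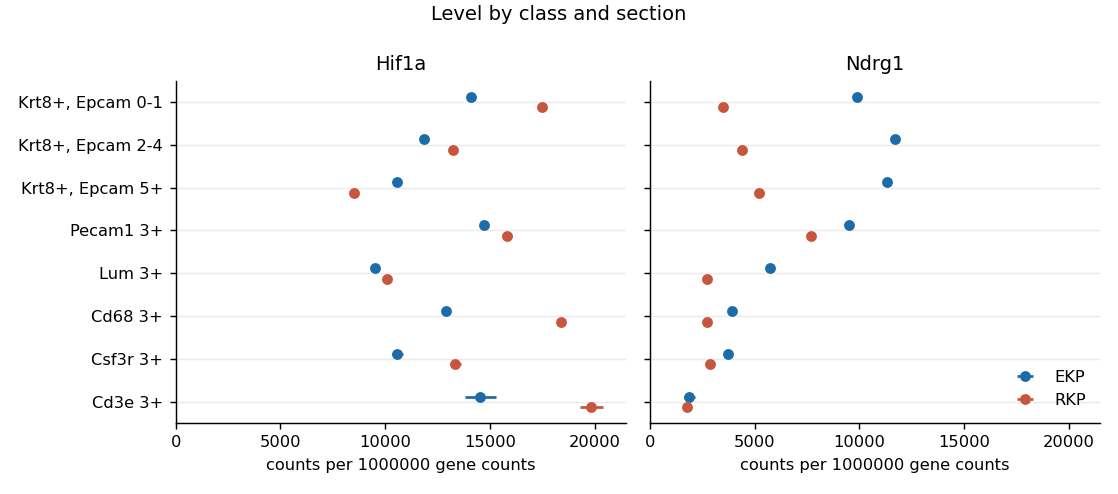
Hif1a (left) and Ndrg1 (right) in counts per 1000000 gene counts, by class, with EKP in blue and RKP in red; points are sums over the barcodes of a class in 1 section, and bars are exact 95% Poisson intervals, mostly narrower than the points. Marker classes are the strict ones. Hif1a is lower in the high than in the low Epcam class, from 17483 to 8517 in RKP, and the Ndrg1 point of EKP is above that of RKP in each class drawn, although for Cd3e the interval of the ratio (0.899 to 1.27) includes equal levels, with the Pecam1 class (9480.4 in EKP, 7686 in RKP) the highest of the marker classes in both sections.

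Among stromal and immune classes, Hif1a was higher in the T cell, macrophage and endothelial marker classes than in the neutrophil and fibroblast ones. In the strict classes of EKP, Hif1a stood at 14719 CPM with Pecam1, 14549 with Cd3e, 12894 with Cd68, 10575 with Csf3r and 9503 with Lum. The first pair have overlapping intervals (14512 to 14928 and 13829.6 to 15297), and the others are apart. In RKP the order began with Cd3e at 19839.5 CPM, followed by Cd68 at 18385, Pecam1 at 15816, Csf3r at 13349 and Lum at 10105, with no overlap between neighbours. Lum was thus lowest and Csf3r next lowest in both sections, while Cd68, Cd3e and Csf3r classes stood higher in RKP by log2 ratios of 0.51, 0.45 and 0.34.

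In barcodes with under 3 counts of Krt8, Hif1a differed by the number of marker counts, in a direction that depended on the marker. From 1 count of Cd68 to 3 or more, Hif1a went from 11652 to 12894 CPM in EKP and from 14828 to 18385 in RKP. From 1 count of Cd3e to 3 or more it went from 12638 to 14549 in EKP and from 17917 to 19839.5 in RKP. Over the same steps of Lum it went from 12302 down to 9503 in EKP and from 14940.4 down to 10105 in RKP. Csf3r, the neutrophil marker, went the same way as Lum, from 11999 down to 10575 in EKP and from 15941 down to 13349 in RKP. Over the steps of Pecam1, Hif1a went from 12418 to 14719 in EKP and from 14749 to 15816 in RKP. In RKP it stood at 14652 with 2 counts of Pecam1, so it was higher at the last step only. From 1 count to 3 or more, the T cell, macrophage and endothelial markers thus came with more Hif1a, and the fibroblast and neutrophil markers with less.

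Of the same 5 strict classes, Ndrg1 was highest in the endothelial one and lowest in the T cell one. In the strict classes of EKP it stood at 9480.4 CPM with Pecam1, 5751 with Lum, 3901 with Cd68, 3727 with Csf3r and 1882 with Cd3e. In RKP it stood at 7686 with Pecam1, 2874 with Csf3r, 2720.2 with Cd68, 2707 with Lum and 1762 with Cd3e. In RKP the Pecam1 class thus lay above the 5198 CPM of the Krt8-positive barcodes with Epcam 5 or more, whereas in EKP it lay below their 11296. The EKP intervals of Cd68 (3814 to 3989) and Csf3r (3570.2 to 3889) overlap. The RKP levels of Cd68 and Lum have overlapping intervals (2664 to 2777 and 2655 to 2759.9), as do those of Csf3r (2755 to 2997) with each of them.

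In barcodes with under 3 counts of Krt8, Ndrg1 went up with Pecam1 counts and down with Cd68 counts. With 1, 2 and 3 or more counts of Pecam1 it stood at 5671, 7105 and 9480.4 CPM in EKP and at 3820.2, 5824 and 7686 in RKP. With the same counts of Cd68 it stood at 5708, 4721 and 3901 in EKP and at 3542, 2995 and 2720.2 in RKP. The steps do not overlap within a section for either marker.

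The Ndrg1 difference between sections was smaller in the strict immune and endothelial classes than in the Krt8-positive ones, a contrast that was not tested. It was 2.12-fold with Lum (2.07 to 2.18; background 12.4% of genes), 1.43-fold with Cd68 (background 26.8%), 1.30-fold with Csf3r (background 26.8%), 1.23-fold with Pecam1 (background 10.0%) and 1.07-fold with Cd3e (0.899 to 1.27; background 8.29%). The Cd3e interval includes equal levels. As log2 ratios of RKP over EKP, Ndrg1 stood at -0.52 with Cd68 and -0.37 with Csf3r, beside -0.23 and -0.25 for the median gene. With Csf3r, 220 of 470 genes lay at least as far towards EKP, so the difference there was near that of the median gene. For Lum, Pecam1 and Cd3e the values were -1.09, -0.30 and -0.095, beside median genes at 0.07, 0.03 and 0.14. With 1 or more marker counts and any Krt8, the folds were 2.26 (Lum; background 13.9%), 1.97 (Cd68; 21.1%), 1.57 (Csf3r; 24.6%), 1.46 (Pecam1; 14.1%) and 1.41 (Cd3e; 11.3%). Those looser classes carried more Krt8, with 17750.5 CPM in the EKP Cd68 class against 2014 in the strict one, and its part in the Ndrg1 level was not tested further. The Lum call depended on 1 stretch of the sections: without the seventh decile of barcode order, the strict fold was 1.82 and the looser one 1.94.

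A pair of rarer marker classes were read as well. Barcodes with Krt5, a keratin of basal and squamous epithelium, numbered 378 in EKP and 7503 in RKP, with Ndrg1 at 13991 and 3906 CPM, 3.58-fold higher in EKP (background 39.0%). Barcodes with Cpa3, a mast cell protease, numbered 806 and 3261, with Ndrg1 at 10563 and 3544 CPM, 2.98-fold higher in EKP (background 36.8%). That fold did not hold at every marker count: with under 3 counts of Krt8, Ndrg1 stood at 7171 and 3403 CPM with 1 count of Cpa3, and at 3475 (2309 to 5022, 54 barcodes) and 4132 (3383 to 4998, 160 barcodes) with 2, where the order turned and the intervals overlap. Of the Cpa3 barcodes, 27.0% in EKP and 54.6% in RKP had 3 or more counts of Krt8, and the strict class was too small in EKP to be read. Hif1a stood at 11843 and 11086 CPM with Krt5 and at 10233 and 13608 with Cpa3. Of the EKP barcodes with Krt5, 66.7% also had 3 or more counts of Krt8.

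Of the 58 genes of a hypoxia and angiogenesis list, 9 were on the panel. Across all barcodes, 3 of the 9 were 2-fold or more higher in EKP (background 19.4%) and 0 in RKP (background 17.1%), and in Krt8-positive barcodes 4 of 9 (background 24.8%) and 0 (background 14.3%). The median log2 ratio of RKP over EKP was -0.75 for the list beside -0.15 for all genes, and -0.92 beside -0.28 in Krt8-positive barcodes. In both readings the list median was the value of Kdr. Of the 9 genes, Kdr, Angpt2, Higd1b, Pecam1 and Vwf are vessel-associated, and Ndrg1 is itself counted. Beside Ndrg1, those past 2-fold over all barcodes included Higd1b, a pericyte-associated gene of the hypoxia-inducible domain family, at 141 and 66.4 CPM. In Krt8-positive barcodes Pecam1 also passed, at 895 and 424 CPM. Vegfa differed less, at 12569.8 CPM in EKP and 10444 in RKP, and at 18383 and 13634 in Krt8-positive barcodes. The endothelial receptor Kdr (1911 and 1139 CPM), the vessel-destabilising ligand Angpt2 (882 and 559.6) and Vwf, von Willebrand factor (1574 and 1032), did not pass. Hif1a was the member of the list with the smallest difference in either reading.

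Ndrg1 counts were more concentrated in few barcodes than Hif1a counts. The 10% of barcodes richest in Ndrg1 held 52.2% of its counts in EKP and 54.5% in RKP, against 29.2% and 30.2% for the 10% richest in Hif1a. In barcodes thinned to 80 counts, the variance of Ndrg1 was 2.59 times its mean in EKP and 1.66 times in RKP, and that of Hif1a was 1.16 and 1.33 times, where counting alone gives about 1. Over all barcodes the median gene stood at 1.43 times in EKP and 1.51 in RKP. Ndrg1 (rank 27 of 259 in EKP, 111 of 276 in RKP) was thus well above it in EKP and near it in RKP. Hif1a was below it in both (ranks 194 and 183). In Krt8-positive barcodes of RKP, Ndrg1 was further above the median gene. It stood there at 1.66 times against 1.22 at high Epcam (rank 34 of 238) and at 1.67 against 1.32 at low Epcam (rank 58 of 250). The highest single barcode had 60 counts of Ndrg1 in EKP and 30 in RKP, and 27 and 28 of Hif1a. At high Epcam, 4.65% of thinned barcodes in EKP and 0.508% in RKP had 5 or more counts of Ndrg1, while 56.3% and 71.5% had 0.

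Detection of Hif1a and Ndrg1 in the same barcode was no more frequent than their separate shares give. In Krt8-positive barcodes thinned to 80 counts, 15767 of 64022 held both in EKP, 0.979 times the number expected (0.966 to 0.993), and 14654 of 109186 in RKP, 0.930 times (0.916 to 0.944). The median ratio of Ndrg1 with all genes was 0.905 in EKP and 0.954 in RKP, so the pair lay on either side of that median. Hif1a was found in 56.9% of barcodes with Ndrg1 and 59.0% of those without it in EKP, and in 51.1% and 56.3% in RKP. Over all classes the ratio ran from 0.958 to 1.03 in EKP and from 0.914 to 0.987 in RKP. Without thinning it was 0.998 and 0.999 in Krt8-positive barcodes.

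Krt8-positive barcodes with more Ndrg1 held more Vegfa and less Mki67, a proliferation antigen, in both sections. Per 1000000 counts other than Ndrg1, and with 0, 1, 2 and 3 or more counts of Ndrg1 in 80, Vegfa stood at 12624, 20374, 27714 and 36800.2 in EKP. In RKP the same steps gave 10842, 16237, 22353 and 31771. Mki67 stood at 4162, 2134, 1082 and 736 in EKP and at 4609, 2804, 1780.2 and 1046 in RKP. Hif1a differed little, at 11770.2, 12145, 11857 and 10821 in EKP, and was lower at each step in RKP, at 11652, 10458, 9587 and 9079.6.

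**Figure D2:**
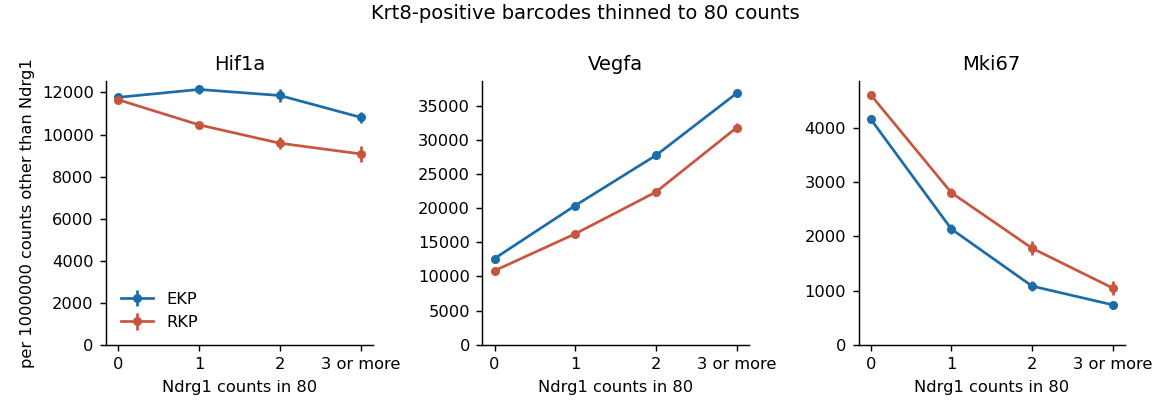
Levels of Hif1a, Vegfa and Mki67 per 1000000 counts other than Ndrg1 (vertical axes, each from 0) in Krt8-positive barcodes grouped by how many of 80 thinned counts were Ndrg1 (horizontal axes), with EKP in blue and RKP in red; bars are exact 95% Poisson intervals. Vegfa goes up at each step, from 12624 to 36800.2 in EKP, Mki67 goes down at each step, and Hif1a stays between 9079.6 and 12145.

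The genes found with Ndrg1 more often than expected in Krt8-positive barcodes were named by a rule, as the 5 highest of 228 genes in the section where each was lower. They were Selenbp1, which encodes a selenium-binding protein (1.68 times the expected number in EKP, 1.41 in RKP), F3, tissue factor (1.39 and 1.28), Vegfa (1.23 and 1.25), Isg20, an exonuclease gene (1.34 and 1.22), and Cdkn1a, a cyclin-dependent kinase inhibitor (1.34 and 1.21). The 5 lowest were Cenpf, a kinetochore protein (0.477 and 0.604), Mki67 (0.512 and 0.636), the myeloid lectin gene Clec4a3 (0.502 and 0.642), Ube2c, a ubiquitin-conjugating enzyme of mitosis (0.563 and 0.648), and Tmem100 (0.561 and 0.653). Of these, Cenpf, Mki67 and Ube2c are expressed in dividing cells.

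For Hif1a the ratios spanned less. Its 5 highest were Ccn3, a matricellular protein (1.15 in EKP, 1.15 in RKP), Tie1, an endothelial receptor (1.14 and 1.19), Vwf (1.14 and 1.17), Gpihbp1, the capillary anchor of lipoprotein lipase (1.15 and 1.14), and Pecam1 (1.13 and 1.18). These took ranks 1 to 5 of 228 in EKP but ranks 29 to 54 in RKP, where the rule, which takes the lower section, does not pick the highest genes. Of these, Tie1, Vwf, Gpihbp1 and Pecam1 are endothelial genes. Its 5 lowest were the membrane mucin Muc4 (0.885 and 0.829), F3 (0.901 and 0.908), the transcription factor Tfcp2l1 (0.921 and 0.813), Prom2, prominin-2 (0.921 and 0.805), and the T-box factor Tbx3 (0.925 and 0.905). In EKP, F3 ranked 3 of 228 by its ratio with Ndrg1 and 227 by that with Hif1a, and in RKP 6 and 185.

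The positions of barcodes were not used here, and barcode order in the file served as a partial stand-in for place. Over deciles of that order, Hif1a in all barcodes ran from 9154 to 13302 CPM in EKP (1.45-fold) and from 10075 to 14420.1 in RKP (1.43-fold). Ndrg1 ran from 6197 in the last decile to 13441 in the seventh in EKP (2.17-fold) and from 3030.3 in the third to 6721 in the seventh in RKP (2.22-fold). The sections overlapped for Hif1a over most of their range. For Ndrg1, only the first (6312) and last deciles of EKP lay below the seventh decile of RKP, and the other 8 lay above all of RKP.

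In Krt8-positive barcodes Ndrg1 stood higher in every EKP decile than in any RKP decile, narrowly so for the closest pair. In EKP it stood at 7638, 11188, 10142, 10756, 16634, 9469, 15169.5, 12800.4, 12388 and 7465 CPM from the first decile to the last, and in RKP at 3709, 5171, 3364, 4397, 4064, 4099, 7308, 4906, 5728 and 4041. The lowest EKP decile, 7465, lay above the highest RKP decile, 7308. Deciles of 1 section are not replicates of a condition. Hif1a in all Krt8-positive barcodes ran from 8518 to 13780.0 in EKP and from 8861 to 14582 in RKP.

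**Figure D3:**
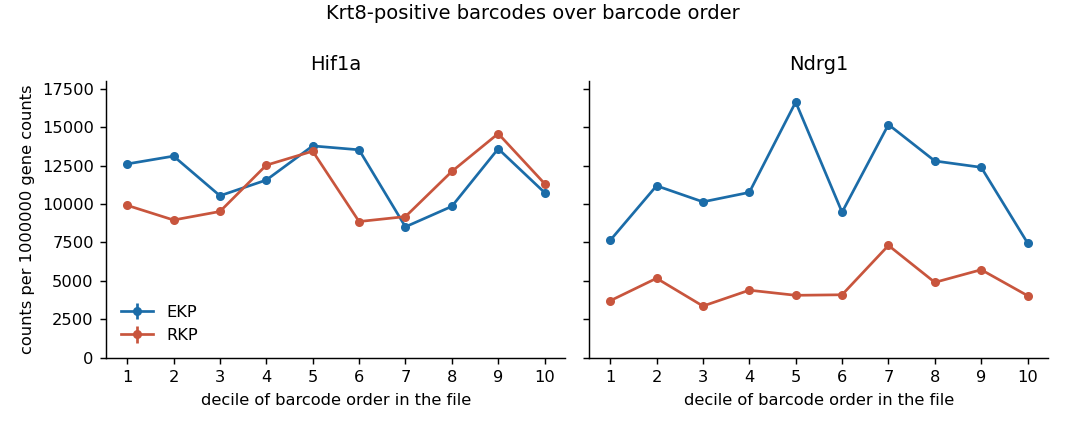
Hif1a (left) and Ndrg1 (right) in counts per 1000000 gene counts in Krt8-positive barcodes of each decile of the barcode order (horizontal axis), with EKP in blue and RKP in red; bars are exact 95% Poisson intervals, smaller than the points. The Hif1a lines cross, and the Ndrg1 lines stay apart, with EKP between 7465 and 16634 and RKP between 3364 and 7308. The intervals of the lowest EKP and the highest RKP decile of Ndrg1 overlap.

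At a finer scale, windows of 500 successive barcodes with at least 50 Krt8-positive ones numbered 326 in EKP and 469 in RKP. The variance of Ndrg1 among windows was 394 times that of counting in EKP, rank 2 of 229 genes, and 142 times in RKP, rank 15. For Hif1a it was 30.0 times (rank 77) and 45.3 times (rank 61), above the median gene at 20.1 and 20.8 times. This ratio grows with the level of a gene, so the spread between windows was also taken as a share of the mean. The SD between windows was then 84.6% of the mean for Ndrg1 in EKP (rank 27) and 71.8% in RKP (rank 46), and 22.4% (rank 214) and 27.1% (rank 191) for Hif1a. As a share of the mean, Ndrg1 thus varied more over barcode order than the median gene (51.4% and 47.2%), and Hif1a less. The place of Hif1a beside the median gene depended on the measure.

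The sections were closest among windows poor in Ndrg1 and far apart among the richer ones. At the 10th percentile of windows the EKP level of Ndrg1 was 1929 CPM, 1.05 times the RKP level of 1828, although the lowest single windows, at 938 and 437 CPM, were 2.15-fold apart. At the 25th percentile the ratio was 1.55. At the median it stood at 9287 and 3363 CPM (2.76-fold), and at the 90th percentile at 25334 and 8863 (2.86-fold). The window with the highest value held 58490.1 CPM in EKP and 25996 in RKP. Hif1a windows were close at the 10th percentile, the median and the 90th percentile, at 8199.8 and 7957, 11632 and 10386, and 15702 and 16229 CPM.

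Vegfa and Ndrg1 went together over windows. Pearson's r was 0.788 in EKP (Spearman's rho 0.808) and 0.850 in RKP (0.833), over points that share a library, a depth and neighbouring tissue. The relation was present at a single Epcam level, with r of 0.909 and 0.895 at low Epcam and 0.835 and 0.860 at high Epcam, in windows of at least 20 such barcodes. Taken per counts other than those of Hif1a, Ndrg1 and Vegfa, r was 0.803 and 0.857. By the rule for named genes, the others with the highest r with Ndrg1 were Selenbp1 (0.789 and 0.638), Cdkn1a (0.809 and 0.638), the chemokine-scavenging receptor Ackr3 (0.556 and 0.703) and Isg20 (0.737 and 0.543). Mki67 gave -0.51 in both sections.

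Hif1a did not follow Ndrg1 over windows, with r of -0.11 in EKP and -0.32 in RKP, or -0.03 and -0.30 per counts other than those of Hif1a, Ndrg1 and Vegfa. Its r with Vegfa was 0.02 and -0.52. Its highest values by the rule were with Snai1, a repressor of epithelial genes (0.597 and 0.726), Id1, an inhibitor of helix-loop-helix factors (0.492 and 0.549), Riiad1 (0.487 and 0.643), F13a1, a coagulation factor subunit (0.475 and 0.499), and the ribosomal protein gene Rpl35 (0.462 and 0.731). These ranked 3 to 12 of 228 in EKP and 34 to 73 in RKP. With Epcam it gave -0.31 in EKP and -0.86 in RKP, and with Mki67 -0.10 and 0.76. Within Epcam classes the r with Mki67 was 0.105 and 0.414 at low Epcam, the same sign in both sections, and -0.31 and 0.381 at high Epcam. The r with Epcam was -0.51 and -0.26 at low Epcam and 0.326 and -0.14 at high Epcam, so its sign in EKP depended on the class.

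**Figure D4:**
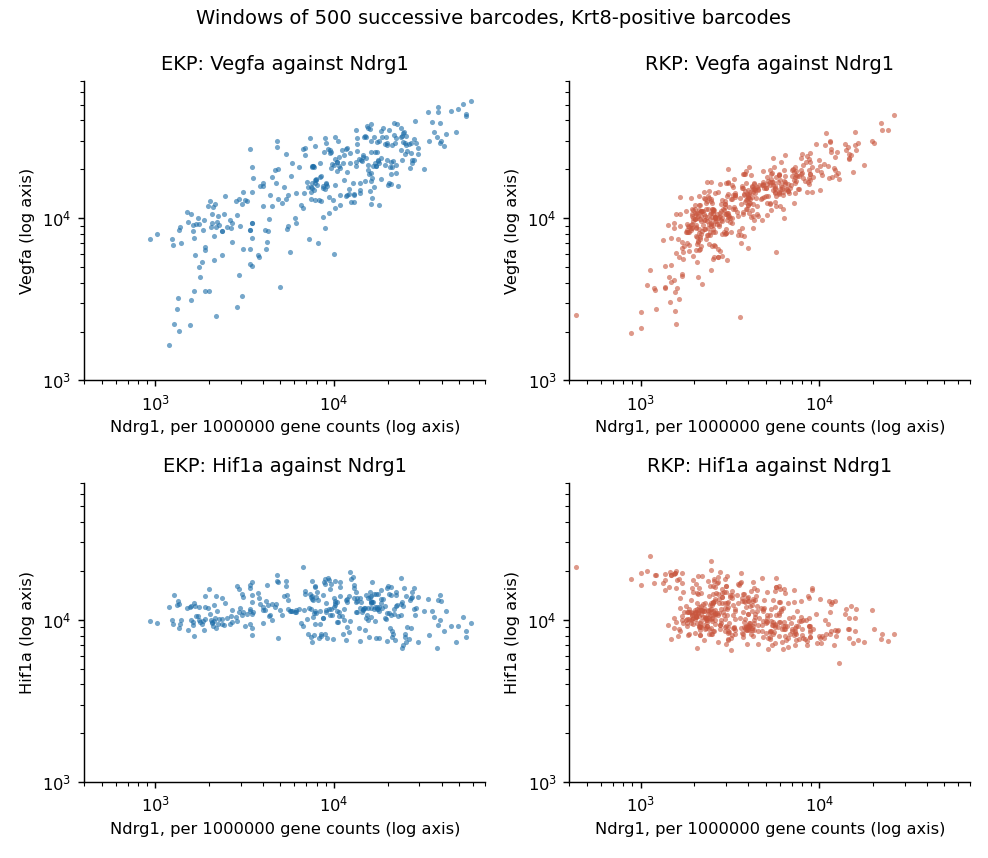
Each point is a window of 500 successive barcodes, with levels in its Krt8-positive barcodes in counts per 1000000 gene counts on log axes; the upper panels plot Vegfa and the lower panels Hif1a against Ndrg1, with EKP left in blue (326 windows) and RKP right in red (469 windows). Vegfa climbs with Ndrg1 in both sections (r 0.788 and 0.850), and Hif1a stays level in EKP (r -0.11) and declines in RKP (r -0.32).

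Within windows, where the expected number was taken window by window, the 5 genes with the highest ratio with Ndrg1 were Vwf (1.22 in EKP, 1.28 in RKP), Gpihbp1 (1.20 and 1.28), Selenbp1 (1.24 and 1.16), Pecam1 (1.16 and 1.35) and Angpt2 (1.17 and 1.16). All but Selenbp1 are genes of endothelium, as is Kdr, at 1.12 and 1.33. The ratio of Vegfa with Ndrg1 went from 1.23 and 1.25 to 1.09 and 1.13, and that of Mki67 from 0.512 and 0.636 to 0.709 and 0.765. Hif1a with Ndrg1 stood at 0.988 and 0.961 on this reading, beside a median gene at 0.953 and 0.967. These Krt8-positive barcodes hold endothelial transcripts at low levels, with Pecam1 at 895 CPM in EKP and 424 in RKP.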

How the data were processed

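Hif1a, Ndrg1, the classes and the gene lists were chosen with earlier results of these data known, including the Krt8, Epcam and depth limits. The authors deposited raw counts per feature and barcode for each section, with no normalization; per the file headers Xenium software made them, without a version. Seurat 4.4.0 is listed in the submitters' processing notes with no role. No source used here gives the segmentation, transcript quality limits or positions.

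Counts of barcodes with 80 or more gene counts were summed per class and scaled to 1000000 gene counts. Poisson, conditional binomial (ratios) and Clopper-Pearson (shares) 95% intervals are exact and cover counting error only. A gene was kept in a comparison when its sum was above the largest negative control probe in at least 1 section or class, and a sum at or below that probe took its value in the fold. Co-detection used barcodes thinned once to 80 counts with a fixed seed. Beside Hif1a and Ndrg1, the text names panel genes of the hypoxia list, class markers, and the 5 genes at each end of the co-detection ratio and the 5 with the highest window r, among genes found in 1% or more of barcodes in both sections. The 5 highest ratios within windows, Kdr there, the depth bins, the deciles left out of strict classes and the barcodes binned by a gene were added after values were seen. Doublets were not called, and with 1 section per group there is no test. Python 3.11.15, numpy 2.4.6, scipy 1.17.1 and pandas 2.3.3 were used, and the steps were tested on simulated data. Ndrg1 had no entry in the promoter table. Values of 1 gene of the hypoxia list are not reported here. Other scalings, filters, class rules, fold limits and window sizes were tried, and each decile of barcode order was left out in turn.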

Additional observations from a re-analysis of the deposited data

Results flagged for a closer look

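The direction of the Hif1a difference between sections was opposite in the Epcam classes of Krt8-positive barcodes. The log2 ratio of RKP over EKP was 0.31 with Epcam 0 to 1 and -0.31 with Epcam 5 or more, and this difference between classes was not tested. The median gene stood at -0.32 in both classes, so Hif1a departed from it at low Epcam only. With each decile of barcode order left out in turn, the ratio stayed between 0.28 and 0.33 at low and between -0.40 and -0.24 at high Epcam.

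Both genes gave counts in the barcodes with under 80 gene counts, which the comparisons leave out and which number 127322 in EKP and 54269 in RKP. Ndrg1 stood there at 13161 CPM in EKP and 4724 in RKP, and these barcodes held 14.1% and 6.16% of its counts. Hif1a stood there at 10194 CPM in EKP and 15175 in RKP. Ndrg1 in EKP was thus higher in shallow barcodes than the 9020.2 CPM of the deeper ones, and in RKP the levels were closer (4724 and 4325). Negative control probes averaged 15.6 CPM in the shallow EKP barcodes and 1.87 in the shallow RKP ones.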

How the results depend on the processing

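The choices tried were, in order below, counts per barcode, gene totals without the 10 genes with the most counts, every barcode weighted alike, at least 40 counts, at least 200 counts and no barcode filter; subtracting negative control probes changed none of the ratios below at 2 decimals. No scaling moved the median log2 ratio of all genes by over 0.1. Ndrg1 passed 2-fold in all of them, both over all barcodes and in Krt8-positive ones.

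As log2 RKP over EKP over all barcodes, Ndrg1 (-1.06) became -1.10, -1.11, -1.10, -1.09, -1.03 and -1.12, and Hif1a (0.09) became 0.046, 0.034, 0.13, 0.10, 0.016 and 0.12. In Krt8-positive barcodes Ndrg1 (-1.22) became -1.29, -1.29, -1.35, -1.24, -1.10 and -1.25, -1.20 with Krt8 5 or more, and -1.12 without stromal and immune markers (chosen after seeing the data). Hif1a there (-0.07) became -0.15, -0.14 and -0.053 under the scalings, -0.091 with 200 or more counts, -0.15 with Krt8 5 or more and -0.28 without those markers. With each decile left out, Ndrg1 stayed between -1.10 and -1.01 over all barcodes and between -1.29 and -1.15 in Krt8-positive ones, and Hif1a between 0.056 and 0.14 and between -0.12 and -0.013. The Cd68 ratio of Ndrg1 (-0.98) passed 2-fold in 2 of 8 settings.

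For high over low Epcam, Hif1a in EKP (-0.42) became -0.10 per barcode, -0.36 without the top 10 genes, -0.46 with Krt8 5 or more and -0.49 without the markers. In RKP (-1.04) it became -0.68, -0.95, -1.09 and -1.20 under the same choices and -1.02 with 200 or more counts, so the 2-fold call was lost under the first pair. Ndrg1 in EKP (0.19) became 0.51, 0.25, 0.15 and -0.24, 0.12 weighted alike, 0.13 with 40 or more counts and 0.37 with 200 or more. In RKP (0.58) it became 0.94, 0.68, 0.74 and 0.51, 0.51 weighted alike and 0.71 with 200 or more. With each decile left out, the ranges were -0.49 to -0.36 and -1.06 to -1.02 for Hif1a, and 0.045 to 0.31 and 0.37 to 0.74 for Ndrg1. The causes were not tested.

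Co-detection in Krt8-positive barcodes became 0.998 in EKP and 0.999 in RKP unthinned, and 0.961 in RKP within windows. With deciles of the filtered barcodes, the highest over the lowest decile became 1.51 (Hif1a, EKP), 2.24 (Ndrg1, EKP) and 1.49 (Hif1a, RKP). With deciles of file order, as in the main reading, but in Krt8-positive barcodes alone, it was 1.62 and 2.23 in EKP and 1.65 and 2.17 in RKP for Hif1a and Ndrg1. With windows of 200 and of 1000 barcodes, the variance over counting became 15.1 and 50.9 (Hif1a) and 224 and 569 (Ndrg1) in EKP, and 22.2 and 77.6 (Hif1a) and 76.6 and 223 (Ndrg1) in RKP. At a limit of 1.5-fold, 162 genes over all barcodes and 181 in Krt8-positive ones were higher in EKP, against 92 and 116 at 2-fold.

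No paired analysis was possible because each group is 1 section. These results are limited in that 1 section per line carries no spread between tumours, that transcripts of neighbours can enter a barcode, and that in EKP 14.1% of Ndrg1 counts lie in barcodes too shallow to be classed.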

Other observations

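Over depth, the genes and sections behaved differently. Ndrg1 in EKP went from 14256 CPM in barcodes of 20 to 39 counts down to 8046 in those of 320 or more, while in RKP it stayed between 4232 and 4849 over all 6 depth bins. Hif1a in EKP went from 7723 CPM in barcodes of 1 to 19 counts up to 12234 in those of 80 to 159, and then down to 10802 at 320 or more. Hif1a in RKP was highest, 15406 CPM, at 20 to 39 counts and lowest, 10048, at 320 or more. Krt8 stood at 18718 CPM in the EKP barcodes of 1 to 19 counts and at 6506 in those of RKP.

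In RKP, Krt8-positive barcodes with more Hif1a held more Mki67 and less Vegfa, the opposite of those with more Ndrg1, and in EKP the differences were smaller. Per 1000000 counts other than Hif1a, from 0 to 3 or more of 80 thinned counts, Mki67 went from 3523 to 5643 in RKP and from 2911 to 2907 in EKP. Vegfa went from 14769.6 down to 8925 in RKP and from 19473 down to 17407 in EKP. Within an Epcam class the RKP differences were smaller. Mki67 went from 5793 to 7138 at low and from 3154 to 3873 at high Epcam, and Vegfa from 7891 down to 6576 and from 16934 down to 13754. Over all Krt8-positive barcodes, Ndrg1 itself went from 5439 down to 3631 in RKP and from 13367 down to 11499.7 in EKP.

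Over Epcam in Krt8-positive barcodes, Vegfa was 2.52-fold higher at high than at low Epcam in EKP and 2.40-fold in RKP.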
